A study of Mus musculus with 4 samples.

Results

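Genes of adult hippocampal neurogenesis were described in 4 mouse messenger RNA libraries, 2 from Stra8 knockout (KO) and 2 from wild-type (WT) animals. The 9 genes are Nes, Eomes, Mki67, Top2a, Igfbpl1, Dcx, Sox4, Sox11 and Draxin. They were chosen by symbol as markers of neural progenitors, dividing cells and immature neurons, and they are 9 of the 55414 genes in the counts table. All 9 passed the filter on low counts, which kept 21592 genes. The KO animals lacked Stra8 and the WT animals did not. Animals of both genotypes carried pStra8-GFP, a transgene that places green fluorescent protein under the Stra8 promoter. The series design names GFP-positive cells sorted from hippocampi. The sample labels give the tissue only as brain, so whether these libraries are sorted cells or whole tissue cannot be told from the sources used here. They state no age, sex or number of animals, nor whether each library is a separate animal. The p-values thus judge the genotype difference against the spread between these libraries, which may be technical.

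Total counts were 71097417 to 82172740 per library. Stra8 itself had 7 and 4 reads in the KO libraries and 5 and 1 in the WT libraries, too few to check the genotype labels. Markers of cells outside the hippocampus were present in every library. A list of 12 cerebellar granule cell genes summed to 414 and 416 CPM in KO libraries 1 and 2. It summed to 595.5 and 598.5 CPM in WT libraries 1 and 2. The CPM unit is a count scaled to a common library size. The sum is not specific to the cerebellum, since Calb2, Etv1 and Neurod1 also stand in lists of immature neurons or olfactory neuroblasts. Etv1 alone had 90.7 and 90.47 CPM in KO. Fat2 and Gabra6, which stand in no other list used here, were lower. Fat2 had 19.85 and 19.62 CPM in KO and 43.32 and 45.7 CPM in WT. Gabra6 had 10.96 and 11.01 CPM in KO and 24.22 and 24.25 CPM in WT. A list of 12 anterior pituitary genes summed to 31.5 and 31.1 CPM in KO against 63.7 and 63.9 CPM in WT. Transcripts known from outside the hippocampus were thus present, and several of the 9 genes are also known from other brain regions.

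In the adult dentate gyrus, radial glia-like stem cells of the subgranular zone divide and give rise to intermediate progenitors, then to migrating neuroblasts and immature neurons, which mature into granule cells. Nestin (Nes) marks the stem cells, Eomes (also called Tbr2) the intermediate progenitors, and doublecortin (Dcx) the neuroblasts and immature neurons. Mki67 and Top2a mark dividing cells of any kind. Outside this lineage, Eomes is known from mitral and tufted cells of the olfactory bulb and from unipolar brush cells of the cerebellum, and Nes from blood vessels. Dcx is known from neuroblasts bound for the olfactory bulb.

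In the KO libraries Eomes fell, Nes and Sox4 rose, and 6 of the 9 genes did not pass the test. The test was edgeR's quasi-likelihood test with Benjamini-Hochberg adjustment over all 21592 genes, called at an adjusted p under 0.05. Of the 9 genes, 2 were called higher and 1 lower, and without WT library 1 or KO library 1 the call of Sox4 was lost, leaving 1 higher. Over all genes tested, 6.53% were called, 3.35% higher and 3.19% lower. The same 3 genes were called by DESeq2 (7.41% of its genes called), by limma-trend (6.61%) and by edgeR with the dispersion set to 0 (6.68%). The median log2 fold change of the 9 genes was 0.04, against -0.00038 over all genes. The genotypes did not overlap for 4 of the 9 genes, against 45.7% of all genes tested, so that count is near the background. Both KO libraries were above both WT libraries for 2 of the 9 (22.8% of all genes) and below them for 2 (22.9%). The 9 genes summed to 174.9 and 180.4 CPM in KO and to 168.6 and 172.2 CPM in WT.

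**Figure D1:**
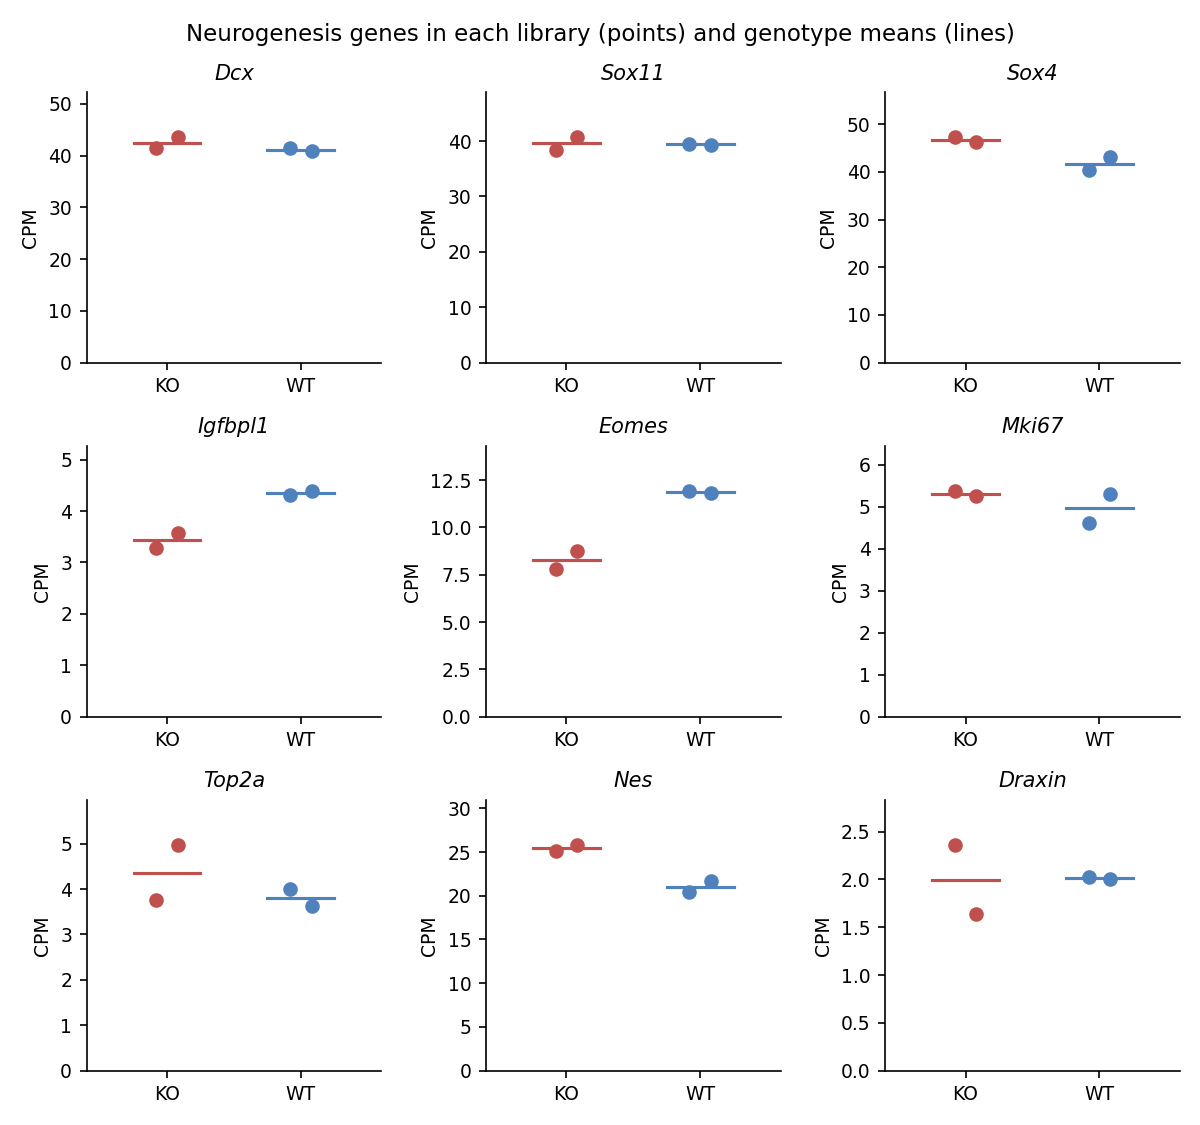
Level of each of the 9 genes in CPM (vertical axis, from 0) in the 2 KO and 2 WT libraries. Points are libraries, with library 1 left of library 2, and lines are genotype means. Eomes lies lower in both KO libraries (7.79 and 8.77 CPM) than in both WT libraries (11.9 and 11.8 CPM), and Nes and Sox4 lie higher in KO.

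The windows just upstream of the RefSeq start sites of the 3 called genes are shown as the regulatory sequence nearest to the transcripts that changed. The set of RefSeq promoter windows used here covers 8 of the 9 genes, Igfbpl1 being the other. For Nes and Sox4 the bases after the RefSeq start were found in a GENCODE M21 transcript, and for Eomes they were not, so its start is RefSeq's alone. Each sequence is the 120 bases before the start, 5′ to 3′ on the gene's strand, in build GRCm38.p6. Capitals mark CCAAT, the box bound by the factor NF-Y, on either strand (ATTGG on the strand shown).
Eomes, chr9:118478069-118478188, plus strand: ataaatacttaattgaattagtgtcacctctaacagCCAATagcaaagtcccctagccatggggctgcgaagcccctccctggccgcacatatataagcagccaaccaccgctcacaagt
Nes, chr3:87970973-87971092, plus strand: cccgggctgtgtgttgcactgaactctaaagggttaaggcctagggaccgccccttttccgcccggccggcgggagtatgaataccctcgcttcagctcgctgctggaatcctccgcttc
Sox4, chr13:28953700-28953819, minus strand: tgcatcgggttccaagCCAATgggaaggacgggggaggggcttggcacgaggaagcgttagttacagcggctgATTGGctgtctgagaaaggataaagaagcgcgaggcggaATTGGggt
The Eomes window holds 1 such box, starting 84 bases before the start site, and the Sox4 window holds 3, starting 104, 47 and 8 bases before it. The Nes window holds none in the bases shown. Over the full 250 bases upstream, 6 of the 8 genes with a window hold CCAAT on either strand, including Top2a with 6 copies and Mki67 with 3. Of 32851 RefSeq windows, 33.8% hold it. CANNTG, the E-box to which factors such as Neurod1 bind, is in the windows of 4 of the 8 genes (Draxin, Sox11, Sox4 and Top2a) and in 66.2% of all windows. Dcx has more than 1 window. TATAAA is in both of them and in 12.4% of all windows, and CCAAT is in only 1 of them. A gene was counted if any of its windows held the motif, while the shares over all windows are per window. Both strands were searched, a CANNTG match can share bases with a CCAAT match, and no binding was measured here.

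Among progenitor genes, Eomes (ENSMUSG00000032446), a T-box transcription factor of intermediate progenitors, was the gene of the 9 with the largest fold change. It had 638 and 621 reads in KO libraries 1 and 2, against 962 and 971 in WT libraries 1 and 2. As levels these were 7.79 and 8.77 CPM in KO and 11.9 and 11.8 CPM in WT. Both KO libraries lay below both WT libraries, and the gap between genotypes was larger than the gap within either. The mean was 8.28 ± 0.69 CPM in KO and 11.9 ± 0.061 CPM in WT (SD, n = 2 libraries each). The gene fell by 30.5%, a log2 fold change of -0.52 (SE 0.080, 95% interval -0.69 to -0.36, edgeR adjusted p = 7.95e-05). In these bulk libraries fewer cells of a type and less RNA per cell cannot be told apart. The call was kept under all 16 alternative settings, where the log2 fold change ranged from -0.61 to -0.44. Set against Dcx in the same library, a ratio that no library scaling moves, there were 18.8 and 20.1 Eomes reads per 100 Dcx reads in KO and 28.8 and 28.9 in WT. This ratio uses the same Eomes reads, so it is not separate evidence of the fall.

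Markers of other cells known to transcribe Eomes were read from lists of their own. Of 8 mitral and tufted cell genes 3 fell, 1 rose and 4 did not pass, with a median log2 fold change of -0.16. Their summed level was 228.7 and 228.9 CPM in KO and 230.8 and 240.7 CPM in WT, and none was at 0. Lhx1, a homeobox factor that Purkinje cells also transcribe, had 2.59 and 2.40 CPM in KO against 4.95 and 4.41 CPM in WT (log2 fold change -0.90, SE 0.127). Cdhr1, a protocadherin-related gene of mitral cells and photoreceptors, had 21 and 19.7 CPM in KO against 24.3 and 24.9 CPM in WT (log2 fold change -0.27). Barhl2, a homeobox factor that the cerebellar list also holds, had a log2 fold change of -0.88. The 1 gene that rose was Slc17a6, the vesicular glutamate transporter VGLUT2 (log2 fold change 0.13), a call lost without WT library 2 or KO library 2 (edgeR adjusted p = 0.053 and 0.0651). Tbx21, the T-box factor of mitral and tufted cells, had 1.32 and 1.65 CPM in KO and 1.31 and 1.66 CPM in WT.

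Of 8 unipolar brush cell genes 2 fell and 6 did not pass (1 lower without WT library 1, 1 higher without KO library 1), with a median of -0.08 and a summed level of 300 and 306 CPM in KO and 315 and 313.5 CPM in WT. Calb2 (calretinin), which immature granule neurons and many interneurons also transcribe, had 71.0 and 73.3 CPM in KO and 80.5 and 82.7 CPM in WT (log2 fold change -0.18). Lmx1a, a defining factor of unipolar brush cells, was between 0.66 and 0.73 CPM in all 4 libraries. The part of these cells, or of the cerebellar granule cells with their median log2 fold change of -0.70, in the fall of Eomes was not tested.

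Nes (ENSMUSG00000004891), the intermediate filament of neural stem cells, rose. It had 25.1 and 25.8 CPM in KO libraries 1 and 2 and 20.5 and 21.6 CPM in WT libraries 1 and 2. Both KO libraries lay above both WT libraries, and the gap between genotypes was wider than the gap within either. The rise was 20.8%, a log2 fold change of 0.27 (SE 0.053, 95% interval 0.16 to 0.38, edgeR adjusted p = 0.00121). It was called under all 16 alternative settings, with log2 fold changes of 0.24 to 0.31 and adjusted p of 8.02e-05 to 0.0204.

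Endothelial genes, from cells also known for Nes, were called in both directions. Of 12 endothelial genes 2 rose, 1 fell and 9 did not pass, with a median of 0.01 and a summed level of 406 and 402 CPM in KO and 430 and 422 CPM in WT. Kdr, the VEGF receptor of endothelium, had 25.7 and 27.0 CPM in KO and 21.2 and 20.1 CPM in WT (log2 fold change 0.35, SE 0.053). The tight junction gene Cldn5 had 33.8 and 35.7 CPM in KO against 31.2 and 30.3 CPM in WT (log2 fold change 0.18), a call lost without WT library 2 (edgeR adjusted p = 0.129) or KO library 2 (0.149). The glucose transporter gene Slc2a1 fell to 108 and 103 CPM in KO, against 134 and 134 CPM in WT (log2 fold change -0.34). Of 10 mural cell genes 0 were called by edgeR, DESeq2 or limma. Of the 10, 1 had an unadjusted edgeR p under 0.05, against 17.4% of all genes tested. It was Myh11, with a log2 fold change of -0.17. The summed level of the mural genes was 252 and 265 CPM in KO and 260 and 257.5 CPM in WT, with none at 0. Per 100 Kdr reads there were 97.6 and 95.7 Nes reads in KO and 96.7 and 107.5 in WT, and the genotypes overlapped. Per 100 Cldn5 reads there were 74.3 and 72.2 Nes reads in KO and 65.5 and 71.45 in WT, with both KO libraries above both WT libraries. Both ratios were chosen after the values were seen. The part of vessels in the rise of Nes was not tested.

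Genes of the wider stem cell list were called in both directions. Of 20 genes of neural stem cells and radial glia, 2 rose, 4 fell and 14 did not pass, with a median log2 fold change of 0.06. Sox2, the factor that maintains neural stem cells, had 41.0 and 41.1 CPM in KO and 36.9 and 35.0 CPM in WT (log2 fold change 0.19, SE 0.041, edgeR adjusted p = 0.0037). Its relative Sox21 had 13.9 and 13.4 CPM in KO and 11.3 and 11.5 CPM in WT (log2 fold change 0.26). Without WT library 2 neither was called (edgeR adjusted p = 0.0802 for Sox2 and 0.0623 for Sox21), and 0 of the 20 genes were then called higher. Sox21 was also not called without WT library 1 or KO library 1 (edgeR adjusted p = 0.117 and 0.131), and DESeq2 did not call it either (adjusted p = 0.0674). Hopx, a marker of quiescent radial glia-like cells that mature dentate and other cells also transcribe, fell to 24.9 and 24.8 CPM in KO, against 31.8 and 30.8 CPM in WT (log2 fold change -0.33, SE 0.047, edgeR adjusted p = 2.95e-05). Id4, an inhibitor of bHLH factors, had 97.9 and 98.1 CPM in KO and 107 and 106 CPM in WT (log2 fold change -0.12). Without WT library 1, without KO library 1 or by DESeq2, 2 of the 20 genes were called lower. By DESeq2 or without WT library 1, 1 was called higher, and at an adjusted p under 0.1 the number called higher was 4. Many genes of this list are also known from astrocytes, whose own list of 12 had 4 genes lower, with a median of -0.05 (and 1 higher without KO library 2) and a summed level of 6182 and 6164 CPM in KO and 6316 and 6333 CPM in WT. The part of astrocytes was not tested.

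Mki67 and Top2a, the markers of dividing cells, did not pass. Mki67 (ENSMUSG00000031004), which encodes a protein that coats mitotic chromosomes, had 5.38 and 5.25 CPM in KO and 4.62 and 5.30 CPM in WT. The KO values lay inside and just above the range of the WT values, so the genotypes overlapped. Its log2 fold change was 0.10 (SE 0.107, 95% interval -0.12 to 0.32, edgeR adjusted p = 0.726). Leaving out WT library 1 gave 0.0039, and leaving out WT library 2 gave 0.20. Top2a (ENSMUSG00000020914), the topoisomerase that separates replicated DNA, had 3.76 and 4.97 CPM in KO and 4.00 and 3.62 CPM in WT. KO library 2 was the highest of the 4 and KO library 1 lay between the WT libraries. Its log2 fold change was 0.19 (SE 0.131, 95% interval -0.08 to 0.46, edgeR adjusted p = 0.523), and -0.02 without KO library 2. At 297 to 440 reads per library these intervals were wide, so the missing calls do not show that the levels were unchanged.

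Of 32 further cell division genes, 0 were called by edgeR, DESeq2 or limma, and 2 had an unadjusted p under 0.05, against 17.4% of all genes tested. The fold changes were positive for 13 and negative for 19, with a median of -0.05 on the log2 scale. Their summed level was 105 and 110 CPM in KO and 108.5 and 109 CPM in WT, with the genotypes overlapping. Rrm2, a subunit of the enzyme that makes deoxynucleotides, had 1.98 and 2.46 CPM in KO and 2.52 and 3.12 CPM in WT (log2 fold change -0.35, edgeR adjusted p = 0.244), and its log2 fold change ran between -0.51 and -0.19 with 1 library left out. Cdc20, an activator of the anaphase-promoting complex, had 1.17 and 1.30 CPM in KO and 0.781 and 0.951 CPM in WT (log2 fold change 0.51, edgeR adjusted p = 0.256). The median level of the list was 2.24 CPM, so single genes were measured with wide error.

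**Figure D2:**
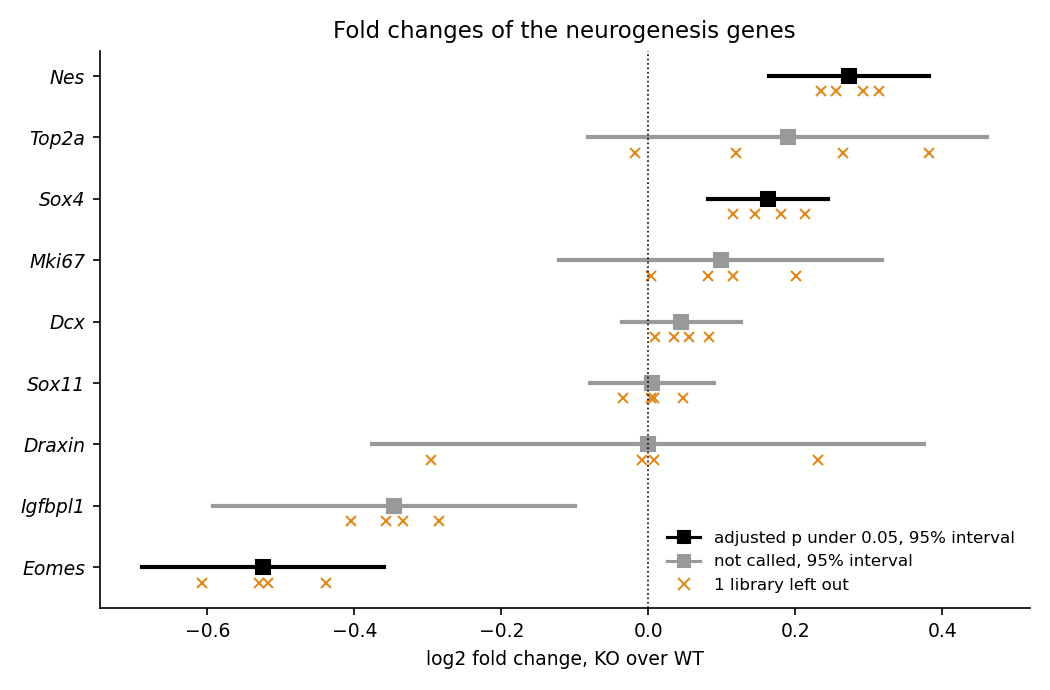
Log2 fold change of each of the 9 genes, KO over WT (horizontal axis), as squares with 95% intervals from the edgeR fit. Black marks an adjusted p under 0.05, grey marks genes that were not called, and crosses are the 4 values with 1 library left out. All crosses of Eomes lie below 0 and all crosses of Nes and Sox4 above it, while those of Draxin run from -0.30 to 0.23.

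Igfbpl1 (ENSMUSG00000035551), a secreted protein related to the insulin-like growth factor binding proteins and a marker of early neuroblasts, was lower in both KO libraries but missed the threshold. It had 3.29 and 3.57 CPM in KO libraries 1 and 2 and 4.31 and 4.39 CPM in WT libraries 1 and 2, from 253 to 360 reads. The genotypes did not overlap. Its log2 fold change was -0.35 (SE 0.119, 95% interval -0.59 to -0.10, edgeR adjusted p = 0.0925). The value was negative under all 16 alternatives, from -0.40 to -0.28, and was called under 1 of them, the looser threshold of 0.1. Per 100 Dcx reads there were 7.93 and 8.19 Igfbpl1 reads in KO and 10.4 and 10.7 in WT, from the same Igfbpl1 reads and so not separate evidence.

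Dcx (ENSMUSG00000031285), the X-linked microtubule-binding protein of migrating neuroblasts, did not pass. Its levels were 41.4 and 43.6 CPM in KO and 41.5 and 40.9 CPM in WT. The lower KO library lay between the WT libraries and the higher one stood above them. The log2 fold change was 0.04 (SE 0.039, 95% interval -0.04 to 0.13, edgeR adjusted p = 0.639), so the interval runs between a fall of 2.48% and a rise of 9.10%. With 1 library left out the log2 fold change ran between 0.0098 and 0.08. With 3088 to 3392 reads per library, Dcx was among the more precisely measured of the 9 genes.

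Sox4 and Sox11 are close relatives in the SoxC group of transcription factors, which act in newly formed neurons and are known to activate neuronal genes such as Dcx. Sox4 (ENSMUSG00000076431) had 47.3 and 46.2 CPM in KO libraries 1 and 2 and 40.3 and 43.2 CPM in WT libraries 1 and 2. Both KO libraries were above both WT libraries, by a gap about as wide as that between the WT libraries. The gene rose by 12%, a log2 fold change of 0.16 (SE 0.040, 95% interval 0.08 to 0.24, edgeR adjusted p = 0.0105). The call was lost without WT library 1 (log2 fold change 0.12, edgeR adjusted p = 0.227) and without KO library 1 (0.15, edgeR adjusted p = 0.0575). Over all 16 alternatives the value stayed positive and the adjusted p ranged from 0.0013 to 0.227.

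Sox11 (ENSMUSG00000063632) had 38.5 and 40.7 CPM in KO and 39.4 and 39.4 CPM in WT. The WT libraries lay between the KO libraries. The log2 fold change was 0.01 (SE 0.041, 95% interval -0.08 to 0.09, edgeR adjusted p = 0.975). There were 123 and 113 Sox4 reads per 100 Sox11 reads in KO and 102 and 110 in WT, from the same Sox4 reads and so not separate evidence. Sox12, the other SoxC gene, had 32.2 and 30.6 CPM in KO and 29.5 and 30.8 CPM in WT (log2 fold change 0.06, edgeR adjusted p = 0.595); it was named as the remaining gene of the group after its values were seen. Sox4 and Sox11 are also known from oligodendrocyte precursors. Of 12 genes of that cell type 3 rose (Gpr17, Enpp6 and Sox10) and 9 did not pass, with a median of 0.08. Their summed level was 650.5 and 640 CPM in KO and 614 and 622 CPM in WT, with none at 0. The log2 fold change was positive for 9 of the 12 and negative for 3, none of them called. The 3 were Pdgfra (-0.04), Cspg4 (-0.03) and Vcan (-0.04), named after their values were seen. Enpp6, a marker of newly forming oligodendrocytes, had 22.8 and 23.8 CPM in KO and 18.9 and 18.3 CPM in WT (log2 fold change 0.33, SE 0.055). The part of these cells in the rise of Sox4 was not tested.

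Draxin (ENSMUSG00000029005), a secreted axon guidance protein that repels growing axons, had the lowest mean level per length of the 9 genes and was the least precisely measured. It had 2.36 and 1.64 CPM in KO, from 193 and 116 reads, and 2.02 and 2.00 CPM in WT, from 163 and 164 reads. The KO libraries stood on either side of the WT libraries. The log2 fold change was -0.0008 (SE 0.182, 95% interval -0.38 to 0.37, edgeR adjusted p = 1), and 0.23 without KO library 2 against -0.30 without KO library 1.

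**Figure D3:**
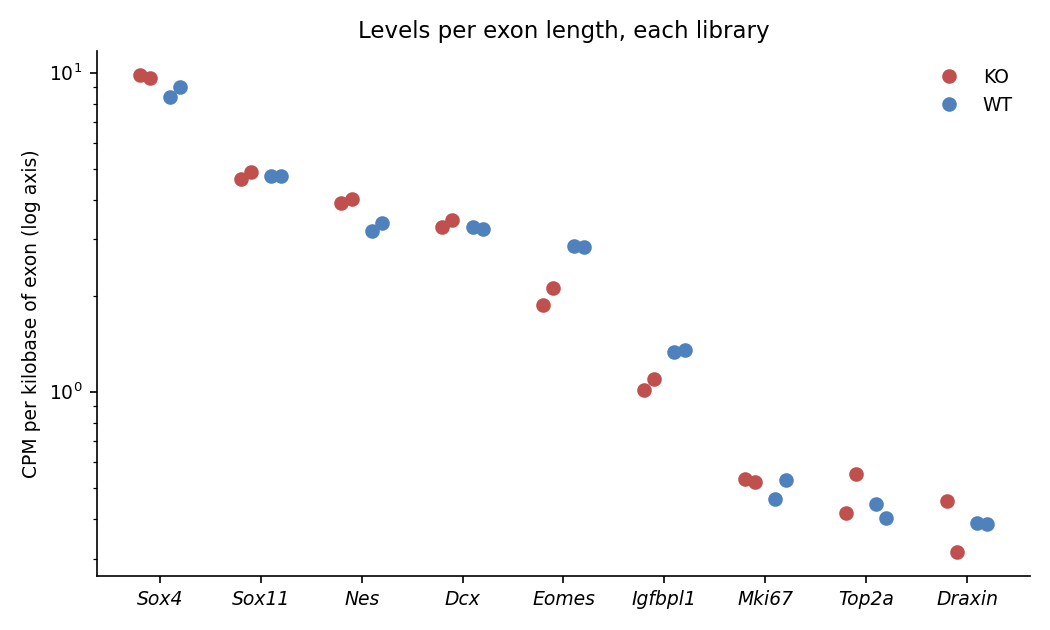
Level of each of the 9 genes per kilobase of annotated exon (vertical log axis, CPM per kilobase), with KO libraries as red points left of WT libraries in blue, in falling order of the WT mean. Sox4 is highest, at 9.86 and 9.63 in KO and 8.40 and 9.004 in WT, and Mki67, Top2a and Draxin lie together below 0.6.

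Levels were compared between genes only after division by exon length, taken from the GENCODE M21 annotation of build GRCm38 as the union of a gene's exons. Sox4 was the most abundant in every library, with a mean of 9.74 CPM per kilobase in KO and 8.70 in WT. Sox11 followed with 4.76 in KO and 4.74 in WT. Nes had 3.97 in KO and 3.28 in WT, and Dcx had 3.36 in KO and 3.26 in WT. In WT the libraries of Nes and Dcx overlapped, and with the longest transcript as the length Dcx (4.54 in WT) stood above Nes (3.44), so their order is not settled. Eomes had 1.99 in KO and 2.86 in WT, below Dcx and above Igfbpl1, which had 1.06 in KO and 1.34 in WT. Mki67, Top2a and Draxin had means of 0.528, 0.484 and 0.384 in KO and of 0.493, 0.423 and 0.386 in WT. The KO libraries of Top2a overlapped those of Mki67 and of Draxin. With the longest transcript as the length Top2a had 0.836 in KO and 0.730 in WT, above Mki67, so their order is not settled either.

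The later part of the lineage was described with a list of 13 intermediate progenitor genes and a list of 25 neuroblast and immature neuron genes. Neurod1, a bHLH factor that dentate progenitors need to become granule neurons, stands in both lists and in the cerebellar granule cell list. It had 23.4 and 26.0 CPM in KO and 42.7 and 43.3 CPM in WT, and its log2 fold change was -0.80 ± 0.048 (SE) with an edgeR adjusted p of 1.89e-11. The KO libraries were below the WT libraries by more than the spread within either genotype. Per 100 Neurod1 reads there were 33.3 and 33.7 Eomes reads in KO and 27.9 and 27.3 in WT, a ratio chosen after the values were seen. Of the other intermediate progenitor genes, Cdk5r1 and Elavl4 rose by 0.08 each on the log2 scale. Without WT library 1 or KO library 1 neither was called (edgeR adjusted p of 0.122 and 0.185 for Cdk5r1 and of 0.242 and 0.314 for Elavl4), and without WT library 2 Elavl4 was not (0.084). Elavl4 was also not called by DESeq2 (adjusted p = 0.119), limma-trend (0.0587), with library size alone (edgeR adjusted p = 0.0824) or with counts halved for the double counting of mates (edgeR adjusted p = 0.0695). The other 10 of the 13 genes did not pass. The list had a median of 0.04 and a summed level of 534.6 and 525 CPM in KO and 520 and 530.4 CPM in WT. Cdk5r1 had 258 and 247 CPM in KO and 234 and 242 CPM in WT. Elavl4 had 113 and 109 CPM in KO and 104 and 105.5 CPM in WT. Both weigh heavily in the sum, and the part of mature neurons in their rise was not tested.

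Of the 25 neuroblast and immature neuron genes 8 rose, 4 fell and 13 did not pass, with a median of 0.04 and a summed level of 5437 and 5438 CPM in KO and 5228 and 5264 CPM in WT. The 4 that fell were Neurod1, Nrep, Calb2 and Bhlhe22, a bHLH factor of cortical neurons (log2 fold change -0.30), the last named to complete the count after its values were seen. Nrep, a small regulator of neuronal regeneration, had 80.2 and 77.3 CPM in KO and 95.4 and 94.1 CPM in WT (log2 fold change -0.27, SE 0.028). Stmn1, a destabiliser of microtubules in immature neurons, had 242 and 248 CPM in KO and 216 and 220 CPM in WT (log2 fold change 0.17, SE 0.019, edgeR adjusted p = 1.5e-06). Dclk1, a kinase with doublecortin domains, had 849 and 848 CPM in KO and 787 and 788 CPM in WT (log2 fold change 0.11, SE 0.013, edgeR adjusted p = 3.49e-06). Many genes of this list are also transcribed by mature neurons at the high levels seen here. Without any 1 library 7 to 8 of them were called higher and 4 lower.

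**Figure D4:**
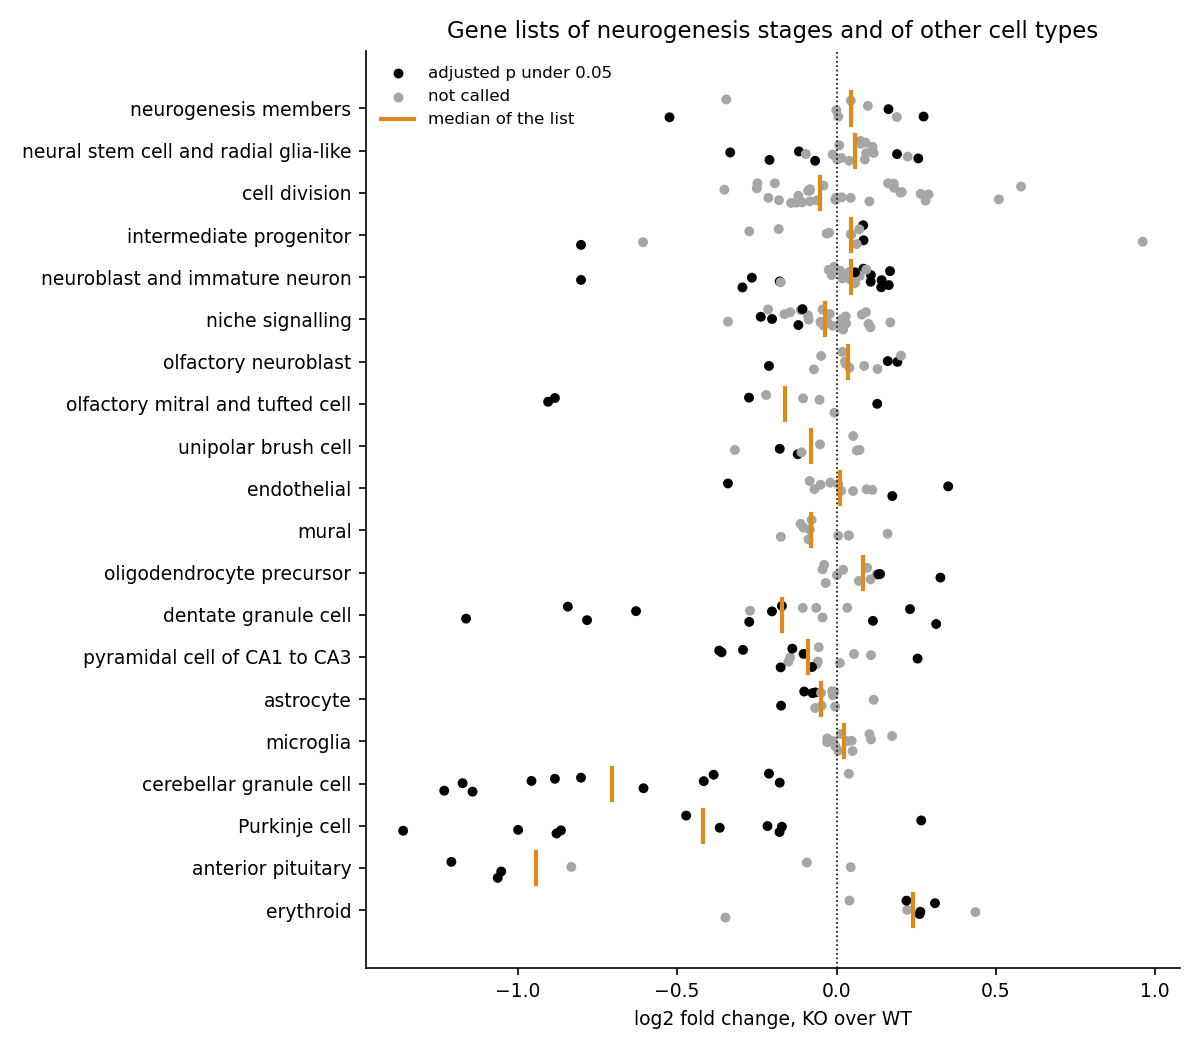
Log2 fold change, KO over WT (horizontal axis), of every tested gene in 20 lists (rows). Each point is a gene, black where its adjusted p was under 0.05 and grey where it was not, and the orange bar is the median of the list. The stage lists in the upper rows have medians between -0.05 and 0.06, and the cerebellar granule cell list has a median of -0.70.

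Among genes of mature dentate granule cells, more fell than rose. Of 15 dentate granule cell genes 7 fell, 3 rose and 5 did not pass, with a median of -0.17. Dsp (desmoplakin) had 8.26 and 9.01 CPM in KO and 15.7 and 15.2 CPM in WT. Lct (lactase) had 7.05 and 6.41 CPM in KO and 12.2 and 11.02 CPM in WT, and the synaptic organiser gene C1ql2 had 15.3 and 14.5 CPM in KO and 22.3 and 23.8 CPM in WT. Penk, the enkephalin precursor, which striatal neurons transcribe at high level, rose to 236 and 251 CPM in KO, against 195 and 197 CPM in WT. The list summed to 883 and 891 CPM in KO and to 896 and 889 CPM in WT, so the sum, in which Penk weighs heavily, overlapped between genotypes. Of 16 genes of CA1 to CA3 pyramidal cells 7 fell, 1 rose and 8 did not pass, with a median of -0.09. Of the 16, 4 were called lower without WT library 1, 3 without WT library 2, 4 without KO library 2 and 3 by DESeq2. These lists give the level of hippocampal neuron markers beside Eomes and Igfbpl1, and their part in those values was not tested.

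Among signals of the stem cell niche, those that passed fell. Of 31 ligands, receptors and modulators of the Wnt, BMP, Notch, Hedgehog and growth factor pathways 30 were tested, Dkk1 having too few reads. Of these 4 fell and 26 did not pass, with a median of -0.04 and a summed level of 1123 and 1101 CPM in KO and 1157 and 1155 CPM in WT. Fgfr1, a receptor for fibroblast growth factors, had 107 and 105 CPM in KO and 126 and 124 CPM in WT (log2 fold change -0.24, SE 0.024, edgeR adjusted p = 2.62e-07). Dkk3, a secreted protein of the Dickkopf family, had 179 and 176 CPM in KO and 195 and 192 CPM in WT (log2 fold change -0.12). Igf1r, the receptor of insulin-like growth factor, fell by 0.11 on the log2 scale and the Wnt receptor gene Fzd1 by 0.20. The call of Igf1r was lost without WT library 2 (edgeR adjusted p = 0.134). That of Fzd1 was lost without WT library 1 (edgeR adjusted p = 0.231) or KO library 2 (0.408, log2 fold change -0.12) and by DESeq2 (0.103). Under 9 of the 16 alternatives, those without WT library 2 or KO library 2 among them, 1 gene was called higher. These genes are also known from many other brain cells.

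Neuroblasts of the olfactory route were read through 12 genes, of which 2 rose, 1 fell and 9 did not pass, with a median of 0.03. By DESeq2, and without WT library 2 or KO library 2, 1 of the 12 was called higher. Meis2, a homeobox factor that striatal neurons also transcribe, had 162 and 163 CPM in KO and 146 and 145 CPM in WT (log2 fold change 0.16). Etv1, which the cerebellar list also holds, had 90.7 and 90.5 CPM in KO and 107 and 103 CPM in WT (log2 fold change -0.21). The list summed to 738 and 735 CPM in KO and to 739.5 and 726 CPM in WT, with the genotypes overlapping. Gad1, named after its values were seen, weighs heavily in this sum. It had 291 and 286.5 CPM in KO and 302 and 295 CPM in WT. The part of these neuroblasts in the level of Dcx was not tested.

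Other cell types were read from their own lists. Of 10 Purkinje cell genes 9 fell and 1 rose, with a median of -0.42 and a summed level of 901 and 902.5 CPM in KO and 1069 and 1064 CPM in WT. Without KO library 1 none of the 10 was called higher. Of 12 cerebellar granule cell genes 11 fell and 1 did not pass. Of 6 anterior pituitary genes tested 3 fell (Gh, Pomc and Prl). Of 8 erythroid genes 4 rose and 4 did not pass, with a median of 0.24 and a summed level of 289.5 and 278 CPM in KO and 236 and 253 CPM in WT. Of 12 microglial genes 0 were called by edgeR, DESeq2 or limma. Of the 12, 1 had an unadjusted edgeR p under 0.05, against 17.4% of all genes tested. The summed level of the microglial genes was 372 and 366 CPM in KO and 364 and 365 CPM in WT. The part of these cell types in the values of the 9 genes was not tested.

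For each of the 9 genes, the nearest profiles over the 4 libraries were taken among genes with a mean of at least 5 CPM, by the root mean square difference of log2 CPM after centring each gene on its own mean. For Eomes these were Ccbe1 (difference 0.036) and Pcolce2 (0.042), 2 of only 4 genes within 0.05. For Igfbpl1 they were Thsd4 (0.017) and Glis3 (0.023), among 44 genes within 0.05. For Nes they were Egr2 and Shox2 (0.0088 and 0.015, 108 genes), for Sox4 Spred3 and Rassf3 (0.0065 and 0.0081, 698 genes), and for Mki67 Phlda3 and Ydjc (0.0059 and 0.0084, 302 genes). For Top2a they were Snhg6 and Gng11 (0.024 and 0.039, 2 genes). Dcx lay nearest to Psmc3 and Polr2m and Sox11 to Actl6b and Tshz1, but 5110 and 5500 of the 11461 candidates were within 0.05 of them, so these neighbours are not specific. Draxin lay nearest to Sft2d3 and Ethe1 (0.044 and 0.053). With 4 libraries such nearness is a description of these values.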

How the data were processed

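Messenger RNA was measured in 2 KO and 2 WT libraries. TRIzol extraction, oligo dT capture, a strand-specific kit and paired reads were used, per the labels' protocols. The authors deposited unnormalized counts for each gene. The submitters' processing notes list the tools STAR 2.6.1c, featureCounts, FastQC and DESeq2 and build GRCm39. Not given in the sources used here are the strand setting, the annotation release and how multi-mapped reads were handled. Of the counts between 1 and 20, 72.8% to 74.3% were even, so both mates of a pair appear to be counted and read numbers overstate independent fragments.

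Columns were matched to samples by title, and symbols to 52081 of 55414 identifiers. Genes were kept with filterByExpr (minimum count 10, 21592 genes), scaled with TMM (factors 0.997 to 1.005) and tested with edgeR 4.0.16 in R 4.3.3 (glmQLFit, glmQLFTest, genotype alone). CPM used the scaled library size. The SE is the log2 fold change over the square root of F. Alternatives included DESeq2 1.42.0, limma 3.58.1, other scalings and filters, counts halved, a replicate block and each library left out. With 1 library left out, the lone library is assumed to vary like the other genotype. The procedure was tested on simulated data. The 9 genes, the 20 lists and the rule for named genes (up to 4 called genes with the smallest p per list, or 2 where none was called) were chosen with earlier results of these data known. Genes outside that rule are named as such or to identify list members. Exon lengths, promoter windows and gene names come from build GRCm38, so no gene coordinates of the counts are given. Single values of some list genes are not reported here.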

Additional observations from a re-analysis of the deposited data

How the results depend on the processing

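Across the 16 alternatives the calls of Eomes and Nes held, and those of Sox11, Mki67 and Top2a were never made, nor were those of Dcx and Draxin in the 15 alternatives that gave them a value. The number of genes called over the whole table, 1411, ranged from 1011 with DESeq2 to 1955 at an adjusted p under 0.1, and from 1064 to 1273 with 1 library left out. With 1 library left out, 1 to 2 of the 9 genes were called higher and Sox4 ranged from 0.12 to 0.21 on the log2 scale; its call was lost without WT library 1 and without KO library 1, and the cause was not tested. At an adjusted p under 0.1, 2 of the 9 genes were called lower, Igfbpl1 joining with its log2 fold change of -0.35. Values near 0 changed sign. Sox11 was -0.0043 with library size alone and ranged from -0.034 to 0.047 with 1 library left out, Top2a from -0.018 to 0.38 and Draxin from -0.30 to 0.23. Draxin was also 0.0097 with the dispersion set to 0 and 3e-04 in the fit that omits sex-chromosome genes, in which Dcx has no value. DESeq2 gave no adjusted p for Draxin. Of the comparisons of other genes and list counts with an alternative, 1525 were rated the same. For a gene this meant keeping its side of the threshold. For a list count it meant staying within 1.5 times, so single calls in a list could still change. In 29 a gene lost its call, in 44 a count moved by over 1.5 times or to or from 0, and 0 changed sign. The replicate numbers pair the libraries in name only. The deviations of same-numbered libraries correlated at 0.016 over genes, and with the replicate block 1590 genes were called, Eomes had a log2 fold change of -0.52, Nes 0.27 and Sox4 0.16, with no call among the 9 genes changed. Depth limits Draxin, Top2a, Mki67 and Igfbpl1 most, at 116 to 440 reads per library.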
